A study of Homo sapiens with 15 samples.

Results

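RANBP17, FHIT, ERP27, TCEAL6, MEST and ST8SIA5 are 6 genes whose array signal separated SCC13 cells carrying a TLR4 plasmid from SCC13 cells carrying the empty plasmid, both with and without lipopolysaccharide. They were chosen by that line difference in relative signal, with and without LPS, so the differences between the lines given for them are a description and carry no test. The arrays held 50599 non-control probes, whose accessions named 20503 genes. Of these probes, 7 belonged to the 6 genes, with 2 probes for TCEAL6 and 1 for each of the other 5 genes. All 7 were among the 22690 probes that passed the filter on dim signal and entered the fits, although RANBP17 and ST8SIA5 passed it only through the line in which they were bright.

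SCC13 is an established line of cutaneous squamous cell carcinoma, a tumour of epidermal keratinocytes. The cells had been stably transfected with the control plasmid (SCC13-pUNO) or with pUNO-TLR4GFP, which drives Toll-like receptor 4 fused to a green fluorescent protein (SCC13-TLR4). Both lines were grown out under blasticidin, and the TLR4 cells were in addition sorted by flow cytometry for the fraction with the strongest fluorescence, so that each line is a single selected population and the plasmid cannot be told apart from any other trait of the selected cells. Cells were left untreated or received 10 μg/ml ultrapure LPS, the bacterial ligand of TLR4, for 24 hours. The 15 one-colour Agilent arrays comprised 4 of untreated SCC13-pUNO, 4 of LPS-treated SCC13-pUNO, 3 of untreated SCC13-TLR4 and 4 of LPS-treated SCC13-TLR4. Replicates were parallel cultures of the same transfected cells, and the p-values below therefore measure only the spread between these arrays, which may be technical. Signals are given as log2 of the processed intensity relative to the 75th percentile of the same array, here called relative signal; a relative signal of 0 lies at that percentile. A probe responds in its own way to its target, so levels are compared between arrays and never between probes.

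The 75th percentile lay between 192 and 420 intensity units, and 47.1% to 56.2% of the spots on an array were well above background. The arrays came from 2 slides, with 8 arrays on slide 1 and 7 on slide 2. Of 14 keratinocyte markers, 12 were well above background on every array, whereas 8 of 9 fibroblast markers were so on none. Of other marker genes, 4 of 8 for leukocytes, 3 of 8 for erythroid cells, 2 of 6 for endothelial cells and 1 of 6 for melanocytes were well above background on every array. A TLR4 probe read between 2.84 and 3.19 on the 7 arrays labelled SCC13-TLR4 and between −6.40 and −3.80 on 7 of the 8 arrays labelled SCC13-pUNO. The array labelled untreated SCC13-pUNO replicate 2 read 3.04, inside the range of the TLR4 arrays, and so went against its label. On none of the 15 arrays did a second TLR4 probe rise well above background. The doubtful array was kept under its label, and results that rest on it are given with and without it, or with a statement of how far they moved.

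The 6 genes have little in common by function. RANBP17 belongs to the importin-beta family of transport receptors, which carry cargo through the nuclear pore under the control of the GTPase RAN, and its closest relative is the exportin XPO7. FHIT encodes a histidine triad hydrolase that splits diadenosine triphosphate, and its gene spans a common fragile site that is often deleted in carcinomas. ERP27 is a protein of the endoplasmic reticulum from the protein disulfide isomerase family that lacks the redox-active cysteines and binds unfolded protein. TCEAL6 is an X-linked member of the transcription elongation factor A-like family, and its close relatives TCEAL3 and TCEAL5 resemble it in sequence. MEST is an imprinted gene that is normally expressed from the paternal copy and encodes a protein of the alpha/beta hydrolase fold. ST8SIA5 is a sialyltransferase that adds sialic acid to gangliosides, the sialylated glycolipids of the cell surface.

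RefSeq promoter windows, from 250 bases before to 50 bases after an annotated start, were at hand for 4 of the 6 genes, and they are printed here to show the sequence from which genes of so different a kind, moving together between the lines, are read. RANBP17 and TCEAL6 each had 1 window, FHIT had 2 and MEST had 5, of which the window with the most CpG dinucleotides is shown. Capitals mark GC boxes, the letters GGGCGG on either strand. The windows lie at chr5:170861768-170862067 on the plus strand (RANBP17), chr3:61251403-61251702 on the minus strand (FHIT), chrX:102142432-102142731 on the minus strand (TCEAL6) and chr7:130491835-130492134 on the plus strand (MEST) of GRCh38.p14. ERP27 and ST8SIA5 are named only.
RANBP17: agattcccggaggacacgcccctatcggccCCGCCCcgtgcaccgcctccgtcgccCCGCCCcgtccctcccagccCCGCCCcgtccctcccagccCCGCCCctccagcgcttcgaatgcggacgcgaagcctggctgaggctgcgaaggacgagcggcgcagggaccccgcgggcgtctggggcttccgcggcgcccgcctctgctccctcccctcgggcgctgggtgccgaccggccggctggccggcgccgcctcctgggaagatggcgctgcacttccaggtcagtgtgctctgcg
FHIT: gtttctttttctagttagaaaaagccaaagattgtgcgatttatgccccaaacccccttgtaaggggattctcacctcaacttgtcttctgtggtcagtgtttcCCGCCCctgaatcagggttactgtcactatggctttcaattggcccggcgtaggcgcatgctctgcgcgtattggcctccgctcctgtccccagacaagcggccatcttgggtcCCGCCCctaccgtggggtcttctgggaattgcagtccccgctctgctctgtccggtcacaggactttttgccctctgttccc
TCEAL6: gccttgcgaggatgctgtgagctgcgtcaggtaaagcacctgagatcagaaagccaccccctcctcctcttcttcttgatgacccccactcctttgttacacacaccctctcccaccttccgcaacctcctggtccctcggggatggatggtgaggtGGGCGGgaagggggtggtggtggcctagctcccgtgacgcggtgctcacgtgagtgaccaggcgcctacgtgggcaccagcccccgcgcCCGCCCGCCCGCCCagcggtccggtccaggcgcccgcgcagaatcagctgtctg
MEST: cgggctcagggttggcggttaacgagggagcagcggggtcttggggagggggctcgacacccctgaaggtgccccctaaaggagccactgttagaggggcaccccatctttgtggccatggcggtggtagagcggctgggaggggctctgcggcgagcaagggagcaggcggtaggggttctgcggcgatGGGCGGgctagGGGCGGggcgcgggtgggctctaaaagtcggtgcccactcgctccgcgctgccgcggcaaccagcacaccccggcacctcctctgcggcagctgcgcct

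The RANBP17 window held 39 CpG dinucleotides and 4 GC boxes, and 92.4% of the 35116 windows of the same length held as many CpG or fewer. The TCEAL6 window held 21 CpG and 4 GC boxes, 3 of which overlap each other. The MEST window held 25 CpG and 2 GC boxes, and the FHIT window 13 CpG and 2 GC boxes. A GC box occurred in 45% of all windows, and the median window held 14 CpG. The FHIT window shown also held a match to the AP-1 motif (TGANTCA on either strand), which occurred in 7.71% of all windows, and the MEST window shown held a match to the NF-kB consensus, which occurred in 5.91%. The TCEAL6 window held an E-box (CACGTG), found in 7.26% of all windows. None of the 9 windows of these genes held the cAMP response element TGACGTCA, which occurred in 1.85%. These matches are a description of the letters and not of binding.

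RANBP17 was bright in the control line and dim in SCC13-TLR4. Its relative signal in untreated SCC13-pUNO was −1.75, −6.16, −1.71 and −1.50 on replicates 1, 2, 3 and 4. In LPS-treated SCC13-pUNO it was −1.33, −1.84, −2.36 and −1.97. With the exception of untreated replicate 2, the control line thus stayed within a narrow band, and the other 7 control arrays were all well above background. Untreated SCC13-TLR4 read −6.55, −6.50 and −6.13, and LPS-treated SCC13-TLR4 read −6.43, −6.13, −6.33 and −6.66. On none of the 7 TLR4 arrays did RANBP17 rise well above background, so that only a bound on the difference can be given. RANBP17 was at least 5.24-fold lower in SCC13-TLR4 with LPS, and at least 6.68-fold lower without LPS when the doubtful array was left out. Without LPS no fold is given with that array kept, since the probe was not well above background on it. Bounds here and below set the mean of the bright group against a floor for each dim array. That floor is the faintest signal of any probe well above background there, or the probe's own signal where higher. It is not a strict limit, since on each array some spots not well above background read brighter. On LPS-treated SCC13-pUNO replicate 1, for example, the brightest of these read −3.57 and the faintest signal well above background −3.94. The folds are therefore bounds against that floor only.

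ERP27 was lower in SCC13-TLR4 and remained above background in both lines. The relative signal was −1.17, −2.87, −1.11 and −1.38 in untreated SCC13-pUNO and −0.96, −1.06, −1.73 and −1.25 with LPS. It was −2.88, −2.59 and −3.22 in untreated SCC13-TLR4 and −3.20, −2.99, −2.79 and −2.68 with LPS. The 4 LPS-treated arrays of each line did not overlap, and among untreated arrays only replicate 2 of SCC13-pUNO lay among the TLR4 arrays. With LPS the mean was −2.92 ± 0.23 in SCC13-TLR4 and −1.25 ± 0.34 in SCC13-pUNO (SD, n = 4 each), a 3.17-fold difference. Without LPS the difference was −1.27 on the log2 scale over all arrays and −1.68 without the doubtful array.

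MEST was also lower in SCC13-TLR4. Untreated SCC13-pUNO read −0.17, −1.33, −0.09 and −0.36, and LPS-treated SCC13-pUNO read −0.26, −0.33, −0.42 and −0.35. Untreated SCC13-TLR4 read −1.26, −2.05 and −1.63, and LPS-treated SCC13-TLR4 read −1.86, −1.35, −1.70 and −1.58. The LPS-treated control arrays agreed closely with each other, and the lines did not overlap there. Their means were −1.62 ± 0.21 and −0.34 ± 0.07 (SD, n = 4 each), a 2.43-fold difference. The untreated difference was −1.16 over all arrays and −1.44 without the doubtful array.

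TCEAL6 was measured by 2 probes against the same transcript, and both gave the same picture. The brighter probe read −0.13, −1.43, −0.09 and 0.08 in untreated SCC13-pUNO and −0.13, −0.27, −0.34 and −0.52 with LPS. In SCC13-TLR4 it read −1.59, −1.64 and −1.88 without LPS and −1.52, −2.21, −1.48 and −1.49 with LPS. On this probe the doubtful array lay just above the highest TLR4 array, so that it was the only probe of the 7 on which the untreated groups did not overlap with all arrays included. The line difference was −1.36 with LPS, −1.31 without LPS and −1.66 without LPS and without that array. The second probe gave −1.37, −1.19 and −1.52 for the same 3 comparisons. Across the 15 arrays the 2 probes correlated at Pearson's r = 0.961, and within the lines, each taken over 7 arrays without the doubtful one, at 0.779 (SCC13-pUNO) and 0.610 (SCC13-TLR4). The gap between them on an array had a median of 0.134 and a highest value of 0.486 log2 units. They share array and sample, so they are not separate evidence. TCEAL5 was well above background on no array and TCEAL3 had no value here, and whether these close relatives contribute to the TCEAL6 signal was not tested.

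FHIT ran in the other direction and was higher in SCC13-TLR4. Untreated SCC13-pUNO read −2.21, −0.40, −2.37 and −2.62, and LPS-treated SCC13-pUNO read −2.23, −2.84, −3.50 and −2.75. Untreated SCC13-TLR4 read −0.20, −0.65 and −1.01, and LPS-treated SCC13-TLR4 read −0.47, −0.12, −0.74 and −0.95. All arrays were well above background for this probe, so the control line kept a measurable FHIT signal. With LPS the means were −0.57 ± 0.36 in SCC13-TLR4 and −2.83 ± 0.52 in SCC13-pUNO (SD, n = 4 each), a 4.79-fold difference without overlap. Without LPS the difference was 1.28 over all arrays and 1.78 without the doubtful array.

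ST8SIA5 was likewise higher in SCC13-TLR4, where it was well above background on all 7 arrays. Its relative signal there was −2.86, −2.40 and −3.15 without LPS and −2.89, −2.60, −2.63 and −2.85 with LPS. In SCC13-pUNO it was −5.18, −2.34, −5.54 and −4.46 without LPS and −5.11, −4.11, −5.50 and −4.66 with LPS. Of these 8 control arrays the probe was well above background only on untreated replicate 2, which was also the brightest of all 15 arrays. SCC13-TLR4 exceeded the control line at least 2.44-fold with LPS and at least 2.65-fold without LPS when that array was left out. No fold is given with that array kept, since it alone of the 4 untreated control arrays was measured above background.

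**Figure D1:**
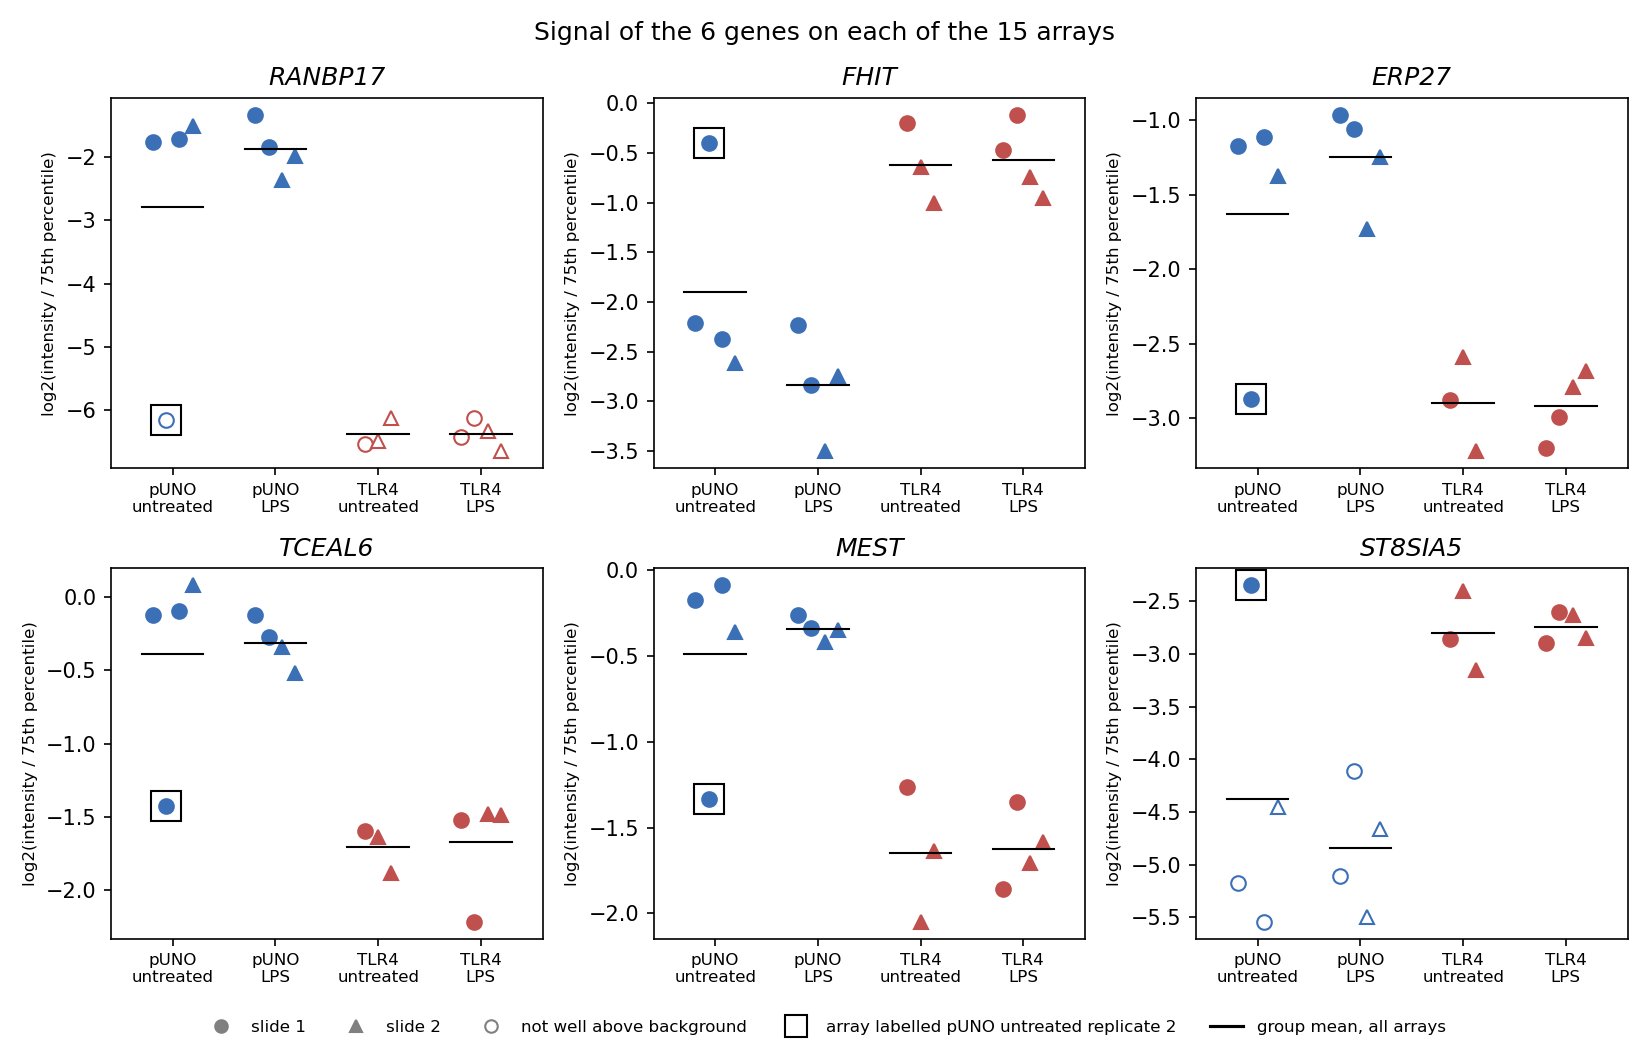
Relative signal (log2 of intensity over the array's 75th percentile) of the 6 genes on each of the 15 arrays, by line and treatment, with the brighter TCEAL6 probe. Symbols show the slide, open symbols a signal not well above background, horizontal lines the mean of all arrays of a group, and the square the doubtful array (label untreated SCC13-pUNO, replicate 2), which lies with the TLR4 arrays in all 6 panels, as for RANBP17 at −6.16 against −1.75 to −1.50 on the other 3 arrays of its group.

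With LPS, all 16 pairs of a TLR4 and a control array pointed the same way for each of the 7 probes. Among the 22415 probes measured throughout, 0.549% were higher and 0.709% lower in SCC13-TLR4 without overlap, and nothing is read from the members' count because this contrast chose them. Without LPS and without the doubtful array, all 9 pairs pointed the same way for each of the 7 probes, beside 4.13% of all probes that were higher and 3.01% that were lower without overlap. With all untreated arrays kept, 1 of the 7 probes did not overlap, beside 2.1% of all probes higher and 1.49% lower. Over both conditions together, with 7 arrays a line, 28 probes (0.125%) were higher and 28 (0.125%) were lower without overlap, and these included the 7 probes of the 6 genes. In the limma fit of these contrasts over all arrays 0 probes passed an adjusted p of 0.05, with 570 (without LPS) and 617 (with LPS) at an unadjusted p under 0.05. When the doubtful array was left out, 7 probes (0.0309%) passed without LPS and 10 (0.0441%) with LPS. How many of these belonged to the 6 genes is not a result, because they were chosen on the same values.

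The line difference is also given by slide, as a description, since the choice of genes used these same values. With the doubtful array left out the lines did not overlap, so the direction on each slide was already fixed. With LPS each slide held 2 arrays of each line. RANBP17 was then at least 5.92-fold lower in SCC13-TLR4 on slide 1 and at least 4.65-fold lower on slide 2. FHIT was higher by 2.24 and 2.28 on the log2 scale. MEST also agreed closely, at −1.31 and −1.26. The ERP27 difference was −2.09 on slide 1 and −1.25 on slide 2, and that of the brighter TCEAL6 probe −1.67 and −1.05. ST8SIA5 was at least 2.42-fold higher on slide 1 and at least 2.46-fold higher on slide 2. Among untreated arrays without the doubtful array, which lay on slide 1, that slide held 1 TLR4 and 2 control arrays and slide 2 held 2 TLR4 arrays and 1 control array. There RANBP17 was at least 6.43-fold lower on slide 1 and at least 7.39-fold lower on slide 2, and ST8SIA5 at least 2.34-fold and 3.21-fold higher. FHIT differed by 2.09 and 1.79, ERP27 by −1.74 and −1.53, MEST by −1.14 and −1.48, and the brighter TCEAL6 probe by −1.48 and −1.84. With the doubtful array kept, the slide 1 difference shrank to 1.46 for FHIT, −1.16 for ERP27, −0.73 for MEST and −1.04 for the brighter TCEAL6 probe. The size of the differences depended on how the background was treated. With normexp correction at an offset of 50, which raises faint signals, the differences with LPS were −0.89 for ERP27, −0.90 for MEST and 1.22 for FHIT.

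**Figure D2:**
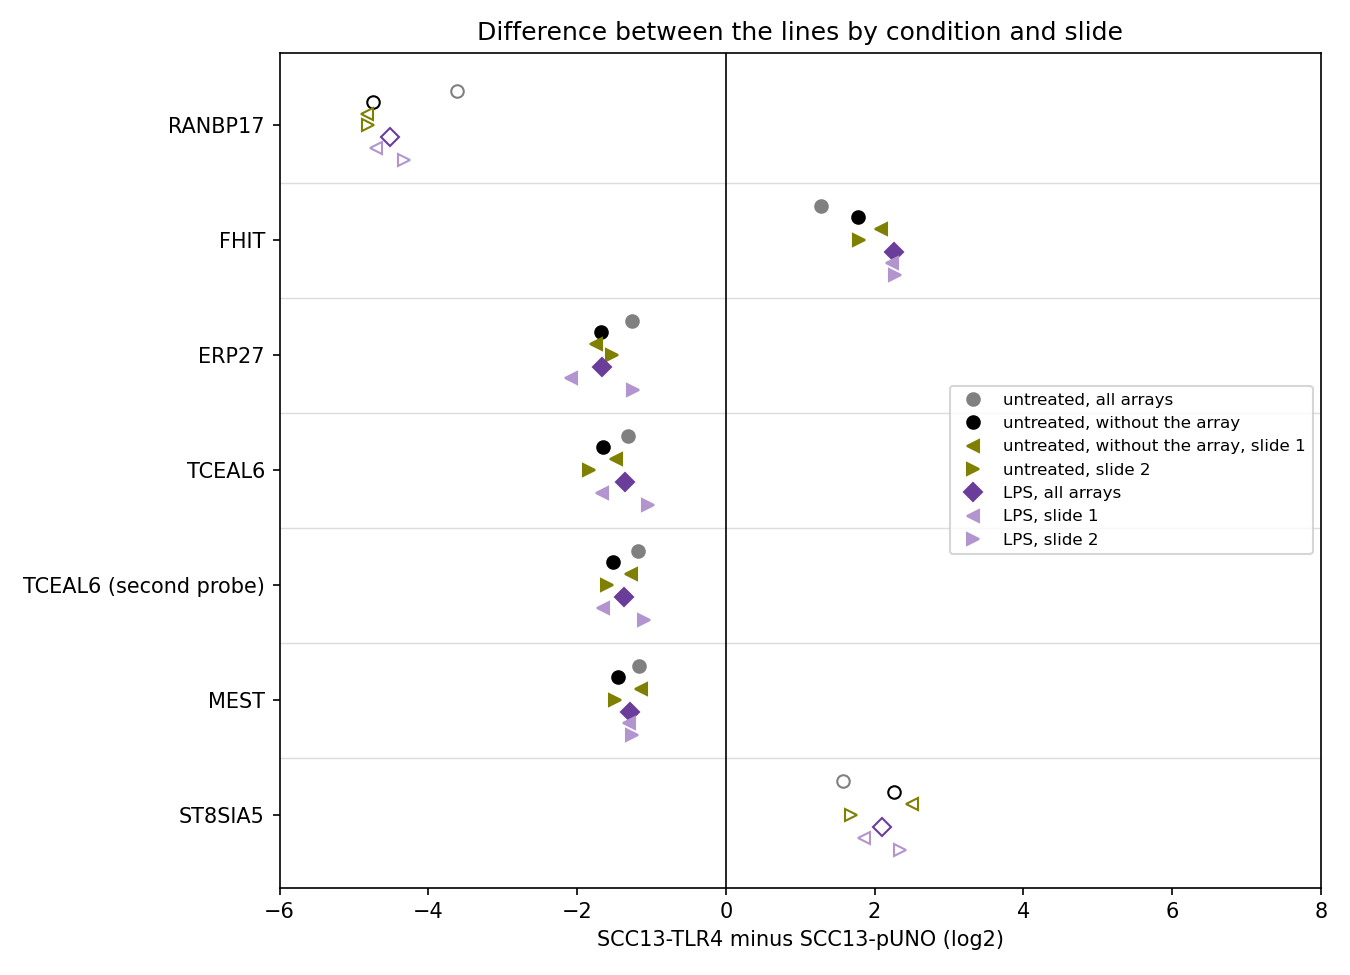
Difference in mean relative signal between SCC13-TLR4 and SCC13-pUNO (log2) for the 7 probes, over all arrays of a condition or within a slide, the untreated ones of slide 1 without the doubtful array. Open symbols (RANBP17, ST8SIA5) are signal differences from a line at background and not measured sizes. All points of a gene lie on the same side of 0, as for FHIT from 1.28 to 2.28.

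The slides themselves differed widely, so the level of each gene was compared between them with the 4 groups in the model. The choice of genes had not used this contrast itself, but it rested on arrays of both slides. The difference between slides passed an adjusted p of 0.05 for 51.9% of all probes tested, and for 50.8% without the doubtful array. Over all arrays none of the 7 probes passed, the nearest being FHIT, which was lower on slide 2 by −0.67 (SE 0.28, limma adjusted p = 0.0601). Without the doubtful array FHIT was the only one of the 7 to pass, at −0.53 (SE 0.14, limma adjusted p = 0.00854). The second TCEAL6 probe followed at −0.33 (limma adjusted p = 0.069), and the brighter one gave 0.05 (limma adjusted p = 0.756). Nothing is read from the share of 1 in 7 beside that of all probes. A choice by separation of the lines over both slides can favour probes with little slide shift.

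The doubtful array was nearer to the mean of the 7 TLR4 arrays than to that of the 7 other control arrays on all 7 probes. It lay 0.04 from the TLR4 mean and 1.63 from the control mean for ERP27, and 0.30 and 1.05 for MEST. For FHIT the distances were 0.19 and 2.25, and for the brighter TCEAL6 probe 0.26 and 1.23. Like the TLR4 arrays, it was not well above background for RANBP17 and was so for ST8SIA5. It fell inside the range of the TLR4 arrays on 5 of the 7 probes, the exceptions being the brighter TCEAL6 probe and ST8SIA5, where it lay just above that range. It fell inside the control range on 0 of them. Of the 49 other probes on which the 7 arrays of each line did not overlap, 41 (83.7%) were also nearer to the TLR4 mean on this array, whereas over all 22415 probes 47.7% were.

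The change with LPS within a line was not itself used to choose the genes, and it was therefore tested. The choice did use the same arrays, since it asked for a line difference both with and without LPS. It can thus favour genes that LPS moves little, which limits what the absence of a call says. RANBP17 was not measurable above background in SCC13-TLR4, so no change could be read there. None of the other 6 probes passed in that line, where the estimates ran from −0.10 to 0.06 with standard errors of 0.26 to 0.58, and of 0.17 to 0.32 without the doubtful array. The limma adjusted p was 1 for each of them, and two-sided exact permutation tests of 4 against 3 arrays gave p from 0.686 to 1, where 0.0286 is the smallest this design allows. The estimate was 0.05 (SE 0.46) for FHIT and 0.06 (SE 0.58) for ST8SIA5. Over all probes 0% passed an adjusted p of 0.05 in this comparison, and 303 of 22690 had an unadjusted p under 0.05, where 1134 are given by chance.

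In SCC13-pUNO ST8SIA5 was above background on the doubtful array alone, so its change could not be read there. None of the other 6 probes passed, and here the estimates depended on the doubtful array. FHIT read −0.93 (SE 0.42) over all arrays (limma adjusted p = 0.9996, exact permutation p = 0.114) and −0.43 (SE 0.29) without that array (exact permutation p = 0.229). RANBP17, at background on the doubtful array alone in this line, read 0.91 (SE 0.78) and −0.22 (SE 0.21), and thus changed sign. The sign also turned for ERP27, at 0.38 (SE 0.33) and −0.03 (SE 0.20), for the brighter TCEAL6 probe, at 0.08 (SE 0.28) and −0.27 (SE 0.18), for the second, at 0.09 (SE 0.30) and −0.24 (SE 0.24), and for MEST, at 0.15 (SE 0.24) and −0.13 (SE 0.17). Exact permutation p-values lay between 0.114 and 0.971 in both settings. Here too 0% of all probes passed, with 564 at an unadjusted p under 0.05. On none of the probes measured in a line were its LPS and untreated arrays without overlap, beside 1.67% of all probes in SCC13-TLR4, 1.25% in SCC13-pUNO and 2.13% there without the doubtful array.

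**Figure D3:**
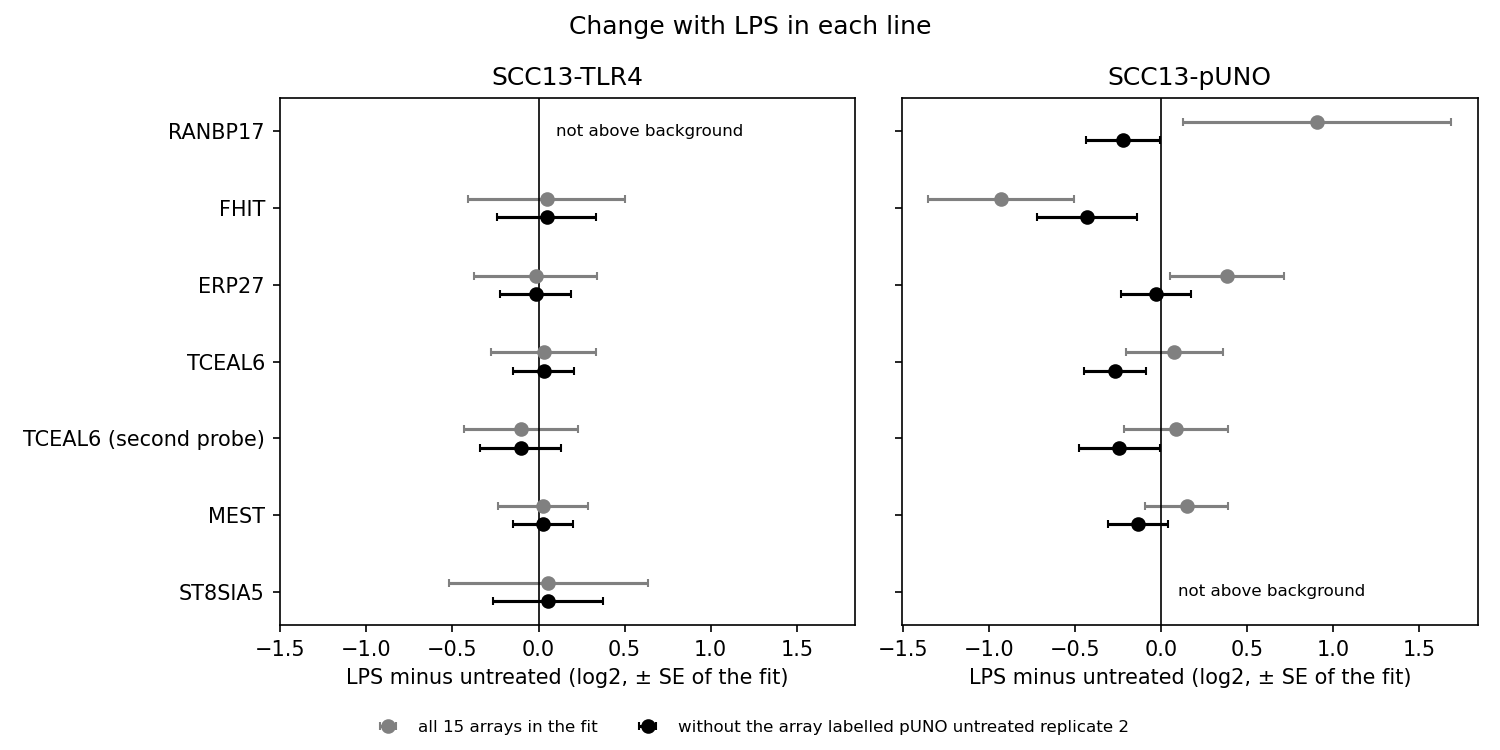
Difference between LPS-treated and untreated arrays (log2, points) with its standard error from the fit (bars) for the probes measured above background in each line, over all 15 arrays (grey) and without the doubtful array (black). The estimates in SCC13-TLR4 lie between −0.10 and 0.06; in SCC13-pUNO, RANBP17 moves from 0.91 to −0.22 when the array is left out.

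The interaction of line and treatment is the line difference with LPS minus that without LPS, both of which the choice of genes had used, so its estimates for them are a description. Over all arrays and without the doubtful array they were 0.98 (SE 0.62) and 0.48 (SE 0.41) for FHIT, −0.40 (SE 0.49) and 0.01 (SE 0.29) for ERP27, and −0.12 (SE 0.36) and 0.16 (SE 0.24) for MEST. The brighter TCEAL6 probe gave −0.05 (SE 0.41) and 0.30 (SE 0.25), and the second −0.19 (SE 0.45) and 0.14 (SE 0.33). RANBP17 and ST8SIA5 lack a measured level in 1 line and are left out here. Over all probes 0% passed an adjusted p of 0.05 (limma), with 300 at an unadjusted p below 0.05.

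Related genes and neighbours on the chromosome, which the choice had not used, are set beside the 6 genes as a description. The 7 lists of related genes held 121 tested genes. Of these 0 passed in any comparison, with or without the doubtful array, beside at most 0.0441% of all probes. Likewise 0 separated the 7 arrays of each line without overlap (0.125% of all probes did so in each direction). With shares so small, nothing is read from these counts. The line differences of the 121 genes with LPS ran from −0.61 to 0.61. Among nuclear transport receptors, 28 of 31 were tested, with a median line difference with LPS of −0.05 beside −0.01 over all probes. XPO7, the closest relative of RANBP17, differed by −0.13, and the largest differences were those of the importin alpha KPNA3 (−0.31) and of the importin IPO8 (−0.18). Among histidine triad and dinucleotide hydrolases, 9 of 10 were tested with a median of −0.07, and ENPP4 (−0.26) and HINT3 (−0.24) differed most. Among 20 large genes at common fragile sites, 11 were tested with a median of 0.00, led by NBEA (−0.37) and DAB1 (−0.32).

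Among protein disulfide isomerases and partners in oxidative folding, 18 of 23 were tested with a median of 0.00, and ERP44, which retains client proteins in the early secretory pathway, read 0.50 and the membrane-bound TMX3 −0.25. The list of TCEAL and BEX genes also held the elongation factors TCEA1, TCEA2 and TCEA3, and 10 of its 15 genes with a probe were tested, with a median of −0.15. Without these 3, 8 of 12 were tested, with a median of −0.16. BEX1 differed by −0.45 and TCEAL8 by −0.27. Of 39 imprinted genes 25 were tested with a median of −0.07, and ZDBF2 (−0.45) and the growth factor gene IGF2 (−0.40) differed most. Of 34 sialyltransferases and enzymes of sialic acid metabolism 20 were tested with a median of 0.00, and ST3GAL1 (0.61) and ST6GALNAC5 (−0.61) ran in opposite directions. ST8SIA1, which makes the ganglioside GD3, differed by 0.11. Without LPS and without the doubtful array, TCEAL9 read −2.47 and ZDBF2 −1.89 between the lines, values that rested on untreated SCC13-TLR4 replicate 1, at −6.51 for TCEAL9 against 1.74 and 1.72 on the other 2 arrays, and at −6.52 for ZDBF2 against −1.80 and −2.04.

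The 5 nearest protein-coding genes on each side of each gene, taken from the order in RefSeq, gave 28 tested genes of 60. Their line differences with LPS ran from −0.82 to 0.25 with a median of −0.07. Of these genes 0 passed in any comparison, beside at most 0.0441% of all probes. Likewise 0 separated the lines without overlap, beside 0.125% of all probes in each direction. With shares so small and so few genes, nothing is read from these counts. Beside RANBP17, KCNMB1 read −0.28 and FBXW11 0.19. Beside FHIT, the receptor phosphatase PTPRG read 0.25 and ACOX2 −0.22. The largest value among the neighbours, −0.82, belonged to RERG beside ERP27, whose TLR4 arrays with LPS scattered with an SD of 1.75, and ARHGDIB there read −0.13. Beside TCEAL6, BEX5 read −0.16 and ARMCX6 0.06, and beside MEST, CPA5 read −0.17 and COPG2 −0.09. Beside ST8SIA5, HDHD2 read −0.19 and ATP5F1A 0.07.

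**Figure D4:**
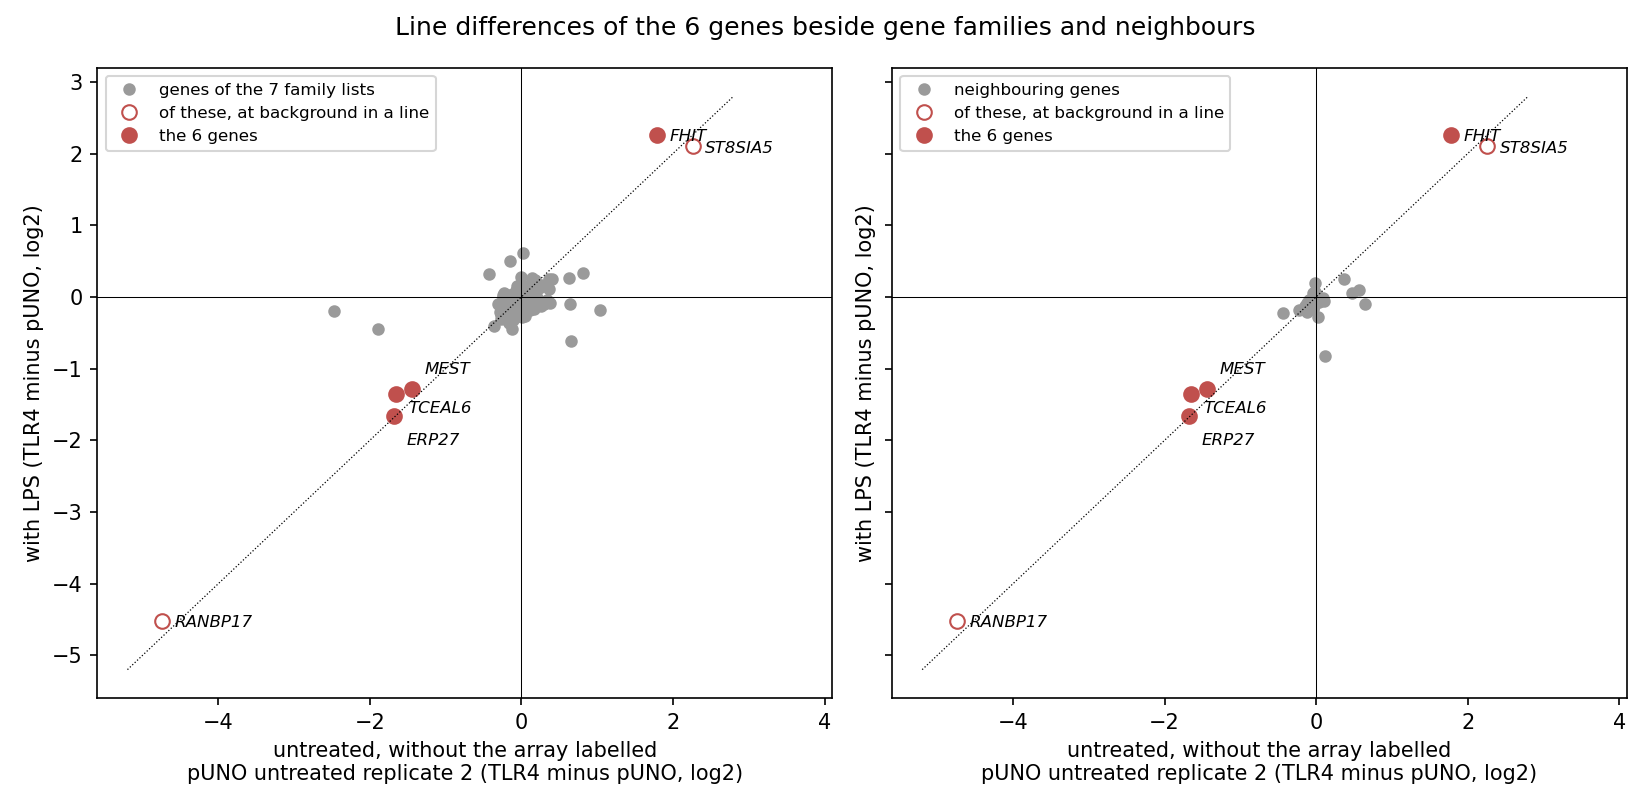
Difference between SCC13-TLR4 and SCC13-pUNO (log2) with LPS against the same difference without LPS and without the doubtful array, for the 6 genes (red) and, in grey, the 121 tested genes of the 7 related lists (left) or the 28 tested neighbouring genes (right); the dotted line marks equal differences. Open red symbols mark genes at background in a line, whose differences are not measured sizes. The filled red symbols run from −1.68 to 1.78 on the horizontal axis. Of the grey genes, 0 separate the 7 arrays of each line without overlap, beside 0.125% of all probes in each direction.

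The 6 genes were chosen for separating the lines, so high correlations between them over all arrays follow from that choice. Over all 15 arrays the absolute Pearson's r between pairs of them ran from 0.853 to 0.966 (0.856 to 0.965 without the doubtful array), as a description of points that form a cluster for each line and share array and slide. Within SCC13-TLR4 the median r over the 10 pairs without RANBP17 was −0.06, with a range of −0.40 to 0.71. Within SCC13-pUNO without the doubtful array it was 0.65 over the 10 pairs without ST8SIA5, with a range of 0.20 to 0.84. The pairs of FHIT changed sign there. Over all 15 arrays FHIT gave r = −0.916 with RANBP17, −0.875 with ERP27, −0.853 with MEST and −0.896 with TCEAL6. Within SCC13-pUNO the same pairs gave 0.837, 0.816, 0.768 and 0.506. LPS-treated SCC13-pUNO replicate 3 read lowest of these control arrays for RANBP17 (−2.36), FHIT (−3.50), ERP27 (−1.73) and MEST (−0.42). It also had the lowest 75th percentile of all arrays, at 192 intensity units. How far the correlations within SCC13-pUNO rest on that array was not tested. RANBP17, ERP27, MEST and TCEAL6 correlated positively with each other over all 15 arrays and within SCC13-pUNO. Within SCC13-TLR4, where RANBP17 was at background, ERP27 gave −0.194 with MEST and 0.367 with TCEAL6. MEST and TCEAL6 gave −0.403 there.

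Outside the 6 genes, the patterns most like that of RANBP17 over the 15 arrays were those of CDIP1 (r = 0.914), RAMP1 (r = 0.911) and CNN3 (r = 0.901), and the most opposite were HBB (r = −0.990), the plasmid-borne TLR4 (r = −0.985) and SNORD45A (r = −0.932). HBB, a globin gene, and TLR4 were also the most opposite to ERP27, TCEAL6 and MEST, with r between −0.962 and −0.942. The gene most like ERP27 was CNN3 (r = 0.901), the gene most like TCEAL6 was TFPI2 (r = 0.907), and that most like MEST was AJAP1 (r = 0.940). ST8SIA5 most resembled CXCL1 (r = 0.942). AJAP1 kept its likeness to MEST within the lines, with r = 0.907 over the 7 TLR4 arrays and 0.671 over the 7 control arrays. Other likenesses were weaker within the lines or turned. Over the control arrays CDIP1 and RANBP17 gave −0.65, and RAMP1 and RANBP17 gave −0.15. CNN3 and ERP27 gave 0.23 over the TLR4 arrays and 0.26 over the control arrays, and TFPI2 and TCEAL6 gave 0.395 and 0.651. Leaving out the doubtful array moved these correlations over all arrays by at most 0.026.

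FHIT most resembled the keratin gene KRT14 (r = 0.982), a gene of basal keratinocytes, and this likeness was kept within the lines, with r = 0.952 over the 7 TLR4 arrays and 0.871 over the 7 control arrays. KRT14 had 3 probes. The one chosen for its likeness was higher by 1.49 in SCC13-TLR4, with 3.37 to 4.15 on the TLR4 arrays and 1.74 to 2.89 on the control arrays. The other 2 were higher by 1.40 and 0.64 and correlated with FHIT at r = 0.860 and 0.951. On all 3 KRT14 probes the doubtful array lay inside the TLR4 range, at 3.92, 1.09 and 3.38. FHIT moved with the slide, as given above, and the part of the slide in this likeness was not tested.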

How the data were processed

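RNA from SCC13-pUNO and SCC13-TLR4 cells was hybridised in 1 colour to Agilent 8x60K arrays, and the deposited scanner files hold the processed intensity of each spot, which the authors obtained with Feature Extraction 10.7.3.1, after its background correction. In the deposited value table every one of the 62976 spots of an array carried this intensity. Deposited spot marks of the kind other (well above background, outlier) were used as filters. The saturated mark was read but not used as a filter. Control spots and outlier spots were left out, spots of a probe were averaged, and log2 of the intensity was taken minus the 75th percentile of each array. A probe was tested if, in some group, all arrays showed it well above background.

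Groups came from the sample labels. A model with 1 mean per group was fitted with limma 3.58.1 in R 4.3.3 over 22690 probes, with Benjamini-Hochberg adjustment, together with exact permutation tests for the 6 genes (scipy 1.17.1), and the fit was tested on simulated data. The test of slides was added after seeing the data. The genes and all lists were chosen with earlier results of these data known. Other genes named were the 3 most and 3 least correlated with a gene, and the 2 with the largest difference with LPS in each list or among neighbours, or a close relative. Alternatives were normexp background correction (offset 50, on median spot signals), quantile normalization, other filters, outlier spots kept, slide or replicate number as a block, array weights, fewer samples in the fit and leaving out each array. The number of arrays limits the precision.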

Additional observations from a re-analysis of the deposited data

Results flagged for a closer look

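Of 24 groups of 4 arrays checked for the 7 probes and TLR4, 6 held an array that stood apart from the other 3. The limit was Dixon's on the gap over the range. For independent groups chance gives about 1 in 20, or 1.2 here. These groups share arrays, and the 7 probes were chosen for separating the lines, so the 2 numbers are not compared. In 4 of the 6 groups the array that stood apart was untreated SCC13-pUNO replicate 2. It read −6.16 for RANBP17, not well above background (others −1.75 to −1.50), and −2.87 for ERP27 (others −1.38 to −1.11). For the 2 TCEAL6 probes it read −1.43 and −1.53 (others −0.13 to 0.08 and −0.26 to −0.17). The brighter TCEAL6 probe also read −2.21 on LPS-treated SCC13-TLR4 replicate 2, where the other 3 arrays lay between −1.52 and −1.48. TLR4 itself read −4.74 on LPS-treated SCC13-pUNO replicate 4, where the other 3 lay between −6.26 and −6.09; none of these 4 readings of TLR4 stood well above background.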

How the results depend on the processing

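The line differences of the 7 probes, which chose them, kept their direction in all 348 combinations of a probe, a condition and an alternative. Of these combinations, 341 stayed within the spread between replicates. The other 7 arose under normexp background correction. No LPS effect of a member passed the threshold in any alternative, so changes of sign there concern estimates near their error, and RANBP17 in SCC13-TLR4 and ST8SIA5 in SCC13-pUNO are background readings, the doubtful array excepted for ST8SIA5. They arose under normexp correction for LPS in SCC13-TLR4 (ERP27 0.12, RANBP17 −0.045, FHIT −0.064), under quantile normalization (ST8SIA5 −0.057, RANBP17 −0.10), with slide as a block (FHIT −0.065, and 0.017 for the interaction of the brighter TCEAL6 probe), with array weights (RANBP17 −0.054, second TCEAL6 probe 0.027, MEST interaction 0.014) and for the mean of both TCEAL6 probes (−0.036). With slide as a block and without the doubtful array, LPS effects in SCC13-TLR4 read −0.0072 (MEST), −0.022 (RANBP17) and −0.042 (FHIT), those in SCC13-pUNO −0.016 (ERP27), −0.10 (MEST), 0.21 (ST8SIA5), −0.20 (RANBP17), −0.28 and −0.19 (TCEAL6 probes), and the interactions 0.095 (MEST), −0.14 (ST8SIA5), 0.18 (RANBP17), 0.32 and 0.031 (TCEAL6 probes). In that setting 11 probes passed between the lines without LPS and 22 with LPS; array weights gave 8 without LPS, and fitting only the groups compared gave 5 with LPS, beside 0 over all arrays. The cause was not tested.

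Same-numbered arrays of different groups deviated together at r over 0.1 in 15 of 21 pairs of arrays, with a lowest r of −0.54. Over all pairs of arrays from different groups, the median r was 0.35 on the same slide and −0.34 on different slides. The numbers were therefore not taken to pair samples. With the replicate block 0 probes passed in each of the 5 comparisons, and LPS effects in SCC13-TLR4 read −0.10 for RANBP17 and −0.021 for the brighter TCEAL6 probe.

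Leaving out each of the 15 arrays in turn gave 0 to 3 probes past the threshold for LPS in SCC13-TLR4 and 0 to 2 for the interaction, both highest without untreated SCC13-TLR4 replicate 3, 0 to 1 for LPS in SCC13-pUNO (highest without LPS-treated SCC13-pUNO replicate 2), and 0 to 7 and 0 to 10 between the lines without and with LPS (highest without the doubtful array; 3 without LPS when untreated SCC13-TLR4 replicate 3 was left out). LPS effects in SCC13-TLR4 then ran from −0.18 to 0.14 (ERP27), −0.17 to 0.22 (MEST), −0.12 to 0.26 (ST8SIA5), −0.083 to 0.13 (RANBP17), −0.060 to 0.21 and −0.25 to 0.029 (TCEAL6 probes) and −0.15 to 0.26 (FHIT). In SCC13-pUNO they ran from −0.030 to 0.56 (ERP27), −0.13 to 0.28 (MEST), −0.85 to 0.22 (ST8SIA5), −0.22 to 1.33 (RANBP17), and −0.27 to 0.23 and −0.24 to 0.23 (TCEAL6 probes). Interactions ran from −0.57 to 0.013 (ERP27), −0.32 to 0.16 (MEST), −0.16 to 0.91 (ST8SIA5), −1.33 to 0.22 (RANBP17), and −0.20 to 0.30 and −0.34 to 0.14 (TCEAL6 probes). Signal over background limits RANBP17 in SCC13-TLR4 and ST8SIA5 in SCC13-pUNO to bounds.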
